A study of Mus musculus with 4 samples.

Results

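The genes described here are 8 factors by which the stromal cells of bone marrow keep and feed blood stem cells and their progeny: Kitl, Cxcl12, Il7, Csf1, Angpt1, Ptn, Vcam1 and Jag1. They were taken by name from the 19938 genes with a value on the arrays, and each was represented by 1 probe set. RNA came from stromal cells of C57BL/6 bone marrow that were sorted as CD45-, CD31- and Ter119- and that expressed green fluorescent protein from the nestin promoter (Nes-gfp). In the MPN group (myeloproliferative neoplasm, n = 3), Nes-gfp recipients carried transplanted marrow cells with the mutant JAK2-V617F and the inducible Mx1-cre transgene, and in the control group (n = 1) a Nes-gfp recipient carried control cells. Both groups were sampled 10 weeks after transplantation, and each array was 1 mouse. The sources used here do not give the genotype of the control donor cells, the age of the mice or whether Mx1-cre was induced. Per the design text the recipients carried the reporter and the mutation came with the transplanted cells, although the genotype label of the MPN samples lists both.

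Blood stem cells in marrow lie next to perivascular stromal cells that express several of these genes at once. Kitl (stem cell factor) and Cxcl12 are the factors best known to be required there, since mice that lack either in perivascular cells lose stem cells from the marrow. Il7 and Csf1 serve lymphoid and macrophage precursors, Angpt1 and Ptn act on endothelial and stem cells, Vcam1 holds blood cells by adhesion, and Jag1 is a membrane-bound Notch ligand. The arrays asked whether stromal cells of mice with MPN marrow expressed such genes differently from those of a mouse with control marrow.

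Of the 8 genes, 6 had values at least 2-fold under the control array in each of the 3 MPN mice: Kitl, Vcam1, Angpt1, Il7, Csf1 and Cxcl12. Jag1 was lower by less than that, and Ptn was not lower on any MPN array; both lay near background on the control array. Among all 19938 genes, 5.78% were 2-fold lower on each MPN array, and the share was 11.0% among the 10211 genes above background on the control array, as all 8 factors were. With limma's test adjusted over all genes, 0 of the 8 passed at 0.05 in either direction, and 0% of all genes did. Unadjusted, 6 of the 8 had a p under 0.05 and were lower, with Jag1 among them and without Csf1, against 8.63% of all genes, and 0 of the 8 had such a p and were higher, against 3.97% of all genes. The median log2 difference over the 8 genes was -2.91, against 0.179 over all genes. In sorted cells pooled on an array, fewer cells that express a gene and less RNA per cell cannot be told apart.

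Values are log2 expression after RMA, the authors' array normalization, and differences are MPN minus control on that scale. Genes of smell and pheromone receptors, which have no known use in marrow, set a background limit of 5.21. A value under it says little about the level, so a gene under it on all 3 MPN arrays is also given as a bound. Levels of different probe sets are not comparable with each other, and the genes are compared here through their differences.

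**Figure D1:**
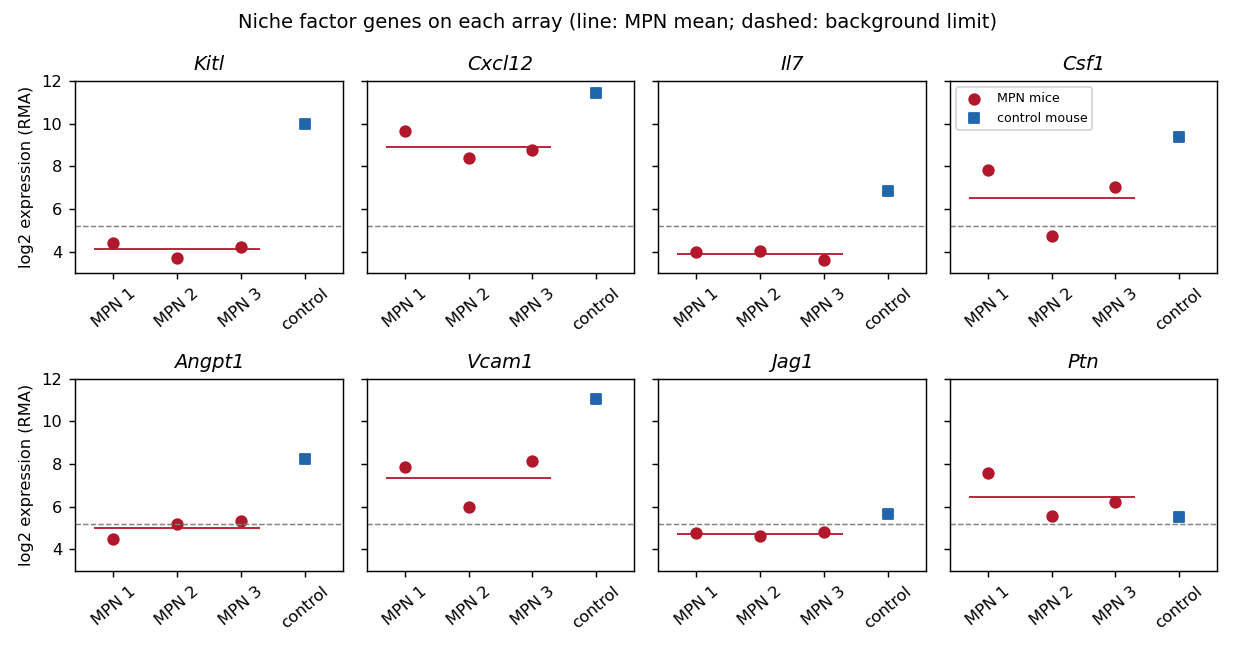
Log2 expression (RMA) of each niche factor gene on the 3 MPN arrays (red circles, with their mean as a line) and the control array (blue square). The dashed line is the background limit of 5.21. In 7 panels every MPN array lies below the control, and in the Ptn panel none does.

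Kitl, the ligand of the receptor Kit and the cytokine that blood stem cells need, had the largest difference of the 8. It was at 4.40, 3.71 and 4.21 in the MPN mice, against 10.00 in the control mouse. All 3 MPN values were under the background limit, while the control value lay far above it, so Kitl was at least 27.7-fold lower in MPN. The log2 difference was -5.89 (SE 0.35, 95% interval -6.94 to -4.85), with limma adjusted p = 0.0871. The MPN mice lay within 0.694 of each other.

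Cxcl12, the chemokine that retains stem cells and B cell precursors through the receptor Cxcr4, stayed well above background in every mouse. It was at 9.65, 8.39 and 8.75 in the MPN mice and 11.42 in the control mouse. MPN mouse 1 was nearest to the control and MPN mouse 2 farthest, with no overlap of the groups. The difference was -2.49 (SE 0.59, 95% interval -4.26 to -0.72), or 5.62-fold, with adjusted p = 0.278. Kitl was under background in every MPN mouse, while Cxcl12 was above it in all of them.

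The windows of 250 bases before the annotated start are shown for Kitl and Cxcl12, the factors named above as required, and for Ptn, the gene that was not lower in MPN. They come from RefSeq (GRCm38.p6), at chr10:100015571-100015820 (plus strand), chr6:117168285-117168534 (plus strand) and chr6:36810180-36810429 (minus strand), and are written 5′ to 3′ along the gene. Capitals mark matches on either strand to the motifs searched: the GC box GGGCGG, the cyclic AMP response core TGACG, the EBF core CCCNNGGG, an NF-kB form (GGG and TTTCC parted by 2 bases of any kind) and the TATA box TATAAA.
Kitl: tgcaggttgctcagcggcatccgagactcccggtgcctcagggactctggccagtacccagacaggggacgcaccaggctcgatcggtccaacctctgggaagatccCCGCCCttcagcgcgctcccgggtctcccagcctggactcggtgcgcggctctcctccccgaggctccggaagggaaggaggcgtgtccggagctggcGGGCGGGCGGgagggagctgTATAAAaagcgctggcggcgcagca
Cxcl12: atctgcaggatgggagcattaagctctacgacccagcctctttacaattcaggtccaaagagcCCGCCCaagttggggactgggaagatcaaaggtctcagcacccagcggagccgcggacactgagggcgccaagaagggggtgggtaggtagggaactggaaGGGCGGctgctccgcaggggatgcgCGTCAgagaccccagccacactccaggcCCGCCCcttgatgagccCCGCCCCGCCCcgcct
Ptn: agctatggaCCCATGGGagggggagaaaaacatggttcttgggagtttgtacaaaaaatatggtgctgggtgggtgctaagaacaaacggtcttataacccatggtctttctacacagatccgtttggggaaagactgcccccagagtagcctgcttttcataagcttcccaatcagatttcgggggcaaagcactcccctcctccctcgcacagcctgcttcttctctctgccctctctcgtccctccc

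Kitl held 3 GC boxes and a TATA box beginning 25 bases before the start. Cxcl12 held 5 GC boxes and 1 TGACG match, and in both genes the pair of GC boxes nearest the start overlap. Ptn held 1 EBF core and no GC box. Of 32851 windows of this length in the table, 32.7% held a GC box, 12.4% a TATA box, 17.8% TGACG and 11.8% the EBF core. The other promoters at hand were those of Csf1, with 2 GC boxes and an NF-kB form that overlaps an EBF core, and Jag1, with 1 TGACG match. An NF-kB form was in 1.41% of windows. The GC content was 69.2% for Kitl, 64.4% for Cxcl12 and 52.0% for Ptn, with a median of 52.4% over all windows. These are letter matches in the reference and not measurements of binding. In all, 5 of the 8 genes had a promoter in the table.

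Il7, the cytokine of lymphoid precursors, showed the pattern of Kitl on a smaller scale. It was at 3.98, 4.02 and 3.61 in the MPN mice and at 6.85 in the control mouse. The MPN mice were close together and all under background, which makes the gene at least 3.13-fold lower in MPN. The difference was -2.98 (SE 0.25, 95% interval -3.72 to -2.24), with adjusted p = 0.0893.

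Csf1, the growth factor of macrophages and osteoclasts, varied most among the MPN mice. It was at 7.82, 4.74 and 7.02 in the MPN mice, against 9.37 in the control mouse. MPN mouse 2 was under background and the other mice were not. The difference was -2.84 with an SE of 1.42, its 95% interval ran from -7.09 to 1.40, and adjusted p was 0.458. Without MPN mouse 2 the difference was -1.95, and without MPN mouse 1 it was -3.49.

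Angpt1, the angiopoietin that activates the receptor Tek (Tie2), was at 4.48, 5.21 and 5.31 in the MPN mice, against 8.22 in the control mouse. MPN mouse 1 was under background, MPN mice 2 and 3 were at it, and the control mouse lay well above it. The difference was -3.22 (SE 0.42, 95% interval -4.49 to -1.95), with adjusted p = 0.141.

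Ptn (pleiotrophin), a heparin-binding growth factor made by marrow stroma and endothelium, was dim on the control array. It was at 7.58, 5.57 and 6.24 in the MPN mice and at 5.52 in the control mouse. MPN mouse 1 was clearly higher than the control and MPN mouse 2 was level with it. The control value lay 0.31 above the background limit, so a value more than 1.24-fold lower in MPN would have been under background and could not be read on this probe set. The difference of 0.95 (SE 0.92, 95% interval -1.81 to 3.70, adjusted p = 0.628) was no larger than the spread of the MPN mice, whose values spanned 2.02. Without MPN mouse 1 it was 0.39 and without MPN mouse 2 it was 1.40. MPN mouse 2 lay below the control by 0.025 after cyclic loess and by 0.290 after the receptor gene medians were set equal. All 3 MPN arrays lay above the control for 46.8% of genes, so the side on which Ptn lay is common on these arrays.

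Vcam1, the adhesion molecule bound by integrin alpha 4 beta 1 on blood cells, was at 7.87, 5.97 and 8.15 in the MPN mice, against 11.06 in the control mouse. It stayed above background in every mouse, and MPN mouse 2 was again the lowest. The difference was -3.74 (SE 1.06, 95% interval -6.90 to -0.58), or 13.3-fold, with adjusted p = 0.342. Without MPN mouse 2 the difference was -3.06.

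Jag1, the Notch ligand, was near the background limit in all mice. It was at 4.75, 4.61 and 4.80 in the MPN mice and at 5.63 in the control mouse. The MPN mice lay within 0.190 of each other and all under background, so the bound is only at least 1.35-fold lower in MPN. The difference was -0.91 (SE 0.17, 95% interval -1.42 to -0.41), with adjusted p = 0.202. All 3 MPN arrays lay below the control for 7 of the 8 factors, Jag1 included, and for 21.1% of all genes.

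**Figure D2:**
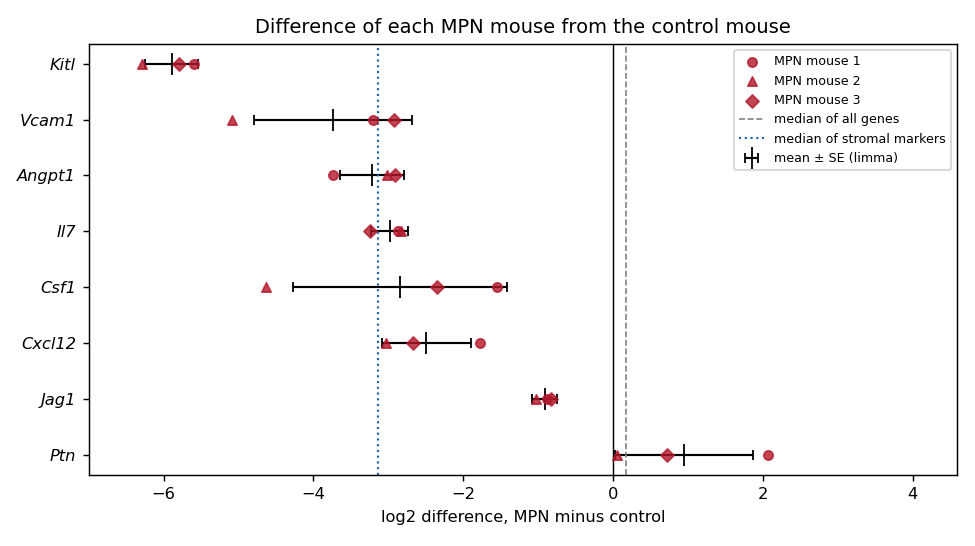
Log2 difference of each MPN mouse from the control mouse (symbols by mouse) with the mean and SE from limma (black), for each niche factor gene. The dashed line is the median of all genes (0.179) and the dotted line the median of 12 stromal markers (-3.14); Kitl lies below the dotted line in each mouse. Jag1 and Ptn lie above it, with control values only 0.43 and 0.31 above the background limit.

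Across the 8 genes, MPN mouse 2 gave the lowest value of the 3 MPN mice for 6 (Kitl, Cxcl12, Csf1, Vcam1, Jag1 and Ptn), while Angpt1 was lowest in mouse 1 and Il7 in mouse 3. Kitl, Il7 and Jag1 were under background on all 3 MPN arrays, so their order among the mice says little. How many of all genes were lowest in mouse 2 was not counted. The median difference over the 8 genes was -2.32, -3.02 and -2.79 in MPN mice 1, 2 and 3. The same arrays differed in cell type markers. The median level of 12 marrow stromal markers was 6.27, 5.55 and 5.84 in the MPN mice and 9.33 in the control mouse. Of the 12, 9 were 2-fold lower on each MPN array, among them Lepr, Col1a1 and Col1a2, against 5.78% of all genes. Cspg4, Col3a1 and Nes barely differed, at 0.01, -0.002 and -0.01. Their control values were 5.29, 6.09 and 4.26, near or under the background limit of 5.21. A fall as large as the stromal median of -3.14 could not have been read on them. The median level of 10 pan-leukocyte markers was 10.15, 9.44 and 10.50 in the MPN mice and 7.03 in the control mouse, and 9 of the 10 were 2-fold higher on each MPN array, against 1.13% of all genes. Ptprc, which encodes CD45, was at 10.16, 9.46 and 10.40 in the MPN mice and 7.07 in the control mouse, although the sort took CD45- cells. The part of these differences in cell content in the values of the niche factors was not tested.

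**Figure D3:**
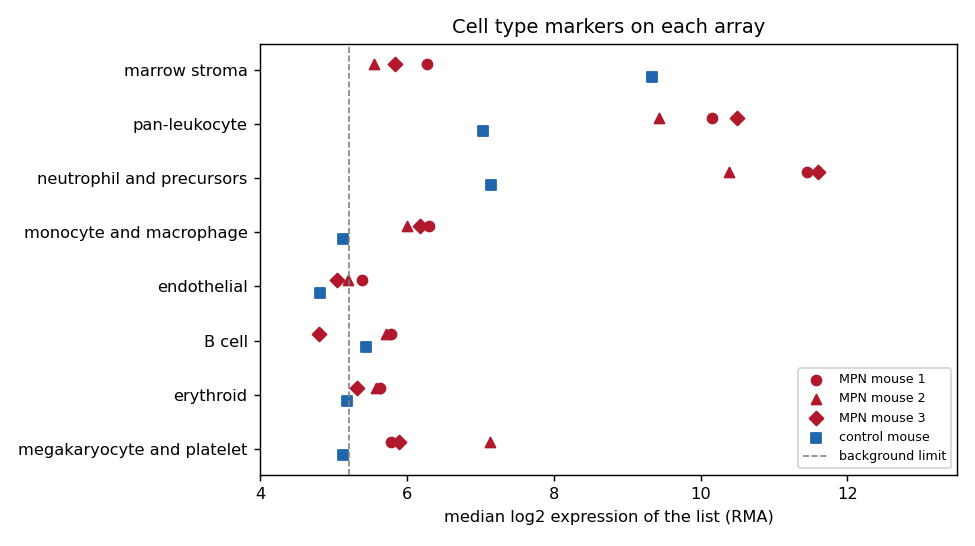
Median log2 expression (RMA) of each list of cell type markers on the 3 MPN arrays (red symbols by mouse) and the control array (blue squares). Stromal markers had medians of 5.55 to 6.27 in the MPN mice and 9.33 in the control mouse, and leukocyte and neutrophil markers lay higher on each MPN array than on the control array.

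Nes and Pecam1, also tied to the sort, were closer between the groups than Ptprc. Nes, whose promoter drives the reporter, was at 4.56, 3.92 and 4.26 in the MPN mice and 4.26 in the control mouse, all under the background limit, so the arrays do not show the transcript behind the gate. Pecam1, the gene of CD31, was at 5.36, 6.04 and 5.31 in the MPN mice and 4.97 in the control mouse. The 10 endothelial markers had medians of 5.38, 5.20 and 5.05 in the MPN mice and 4.81 in the control mouse, near or under background. Neutrophil markers, 12 in number, were far apart, with medians of 11.44, 10.39 and 11.60 in the MPN mice and 7.14 in the control mouse. Of these, 10 were 2-fold higher on each MPN array, against 1.13% of all genes. The medians of 6 monocyte and macrophage markers were 6.30, 5.99 and 6.17 in the MPN mice and 5.13 in the control mouse. Markers of B cells (7 genes), erythroid cells (7) and megakaryocytes (5) had median differences of 0.08, 0.25 and 0.82. Of them, 0 were 2-fold higher or lower on each MPN array, against 1.13% and 5.78% of all genes.

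The niche factors were also set against the stromal markers on the same array. Kitl was lower than the median stromal difference in each mouse. Its MPN values were all under background, and with them raised to the background limit its difference still lay below that median, at a gap of -2.15, -1.60 and -1.72 in MPN mice 1, 2 and 3 on the log2 scale. The Kitl control value lay 4.79 above the limit, and single stromal markers fell by more than that in some mice. Dcn had differences of -5.49, -5.55 and -2.03 in MPN mice 1, 2 and 3, and Lepr had -3.95, -4.99 and -3.63. For Cxcl12 the gap was 0.87, 0.16 and 0.40 above the median. Csf1, Angpt1 and Vcam1 lay above it in some mice and below it in others. Il7 and Jag1 cannot be placed in this way, as both were under background on every MPN array. On the control array they lay 1.64 and 0.43 above the limit, less than the median stromal difference of each mouse. Ptn was above background on all arrays, and its gap was 4.71, 3.24 and 3.80 above the median. Its control value lay only 0.31 above the limit, so a fall as large as the stromal one could not have been read. These are differences between genes within arrays, given as a description without a test.

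The receptors of these factors had a median difference close to that of all genes. Of 16 receptor genes measured, 0 passed limma's adjusted threshold in either direction, and the median difference was 0.105. On each MPN array 2 were 2-fold lower, against 5.78% of all genes and 11.0% of those above background on the control array. Only 1 was 2-fold higher on each, against 1.13% of all genes. Cxcr4, the receptor of Cxcl12, was at 10.54, 10.26 and 10.69 in the MPN mice and at 8.95 in the control mouse, a difference of 1.54 (SE 0.24, adjusted p = 0.172). It was the receptor 2-fold higher on each MPN array. Leukocytes express this gene, their markers were higher on the same arrays, and their part in its value was not tested. Ackr3, the scavenging receptor for the same chemokine, had a difference of -1.24 (SE 0.66). Kit was at 5.58, 6.35 and 5.96 in the MPN mice and 6.82 in the control mouse, a difference of -0.86 (SE 0.37, adjusted p = 0.439).

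Ptprz1, a receptor-type phosphatase that binds Ptn, was one of the 2 receptors that were 2-fold lower on each MPN array. It was at 3.29, 3.59 and 3.46 in the MPN mice, against 6.68 in the control mouse, so it was under background on each MPN array and at least 2.78-fold lower. Its difference was -3.24 (SE 0.20, adjusted p = 0.0871), while that of Ptn was 0.95. Sdc3, a syndecan that also binds Ptn, had a difference of -0.28 (SE 0.30). The integrin chains that bind Vcam1 went opposite ways in value: Itgb1, shared by many integrins, was at 8.25, 8.45 and 8.84 in the MPN mice and 10.69 in the control mouse (-2.18, SE 0.30, adjusted p = 0.148), and Itga4 had a difference of 1.00 (SE 0.67). Itgb7, the other partner of Itga4, had 0.77 (SE 0.25).

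The receptors of Il7, Csf1 and Angpt1 were dim. Il7r was at 4.17, 4.17 and 4.12 in the MPN mice and 4.17 in the control mouse. Csf1r was at 4.55, 5.10 and 5.84 in the MPN mice and 4.55 in the control mouse, with its value above background in MPN mouse 3. Tek had a difference of 0.23 (SE 0.16) and stayed under background in all mice, and its relative Tie1 had 0.49 (SE 0.27). Of the Notch receptors, which bind Jag1, Notch2 was at 6.06, 5.98 and 6.34 in the MPN mice and 7.24 in the control mouse, a difference of -1.11 (SE 0.22, adjusted p = 0.226). Notch1 had 0.29 (SE 0.18), Notch3 -0.16 (SE 0.19) and Notch4 0.44 (SE 0.33). Of 8 Notch target genes, 0 passed the adjusted threshold and 1 was 2-fold lower on each MPN array, against 5.78% of all genes. That gene was Hey1, at -1.19 (SE 0.30). Hes1 had -0.69 (SE 0.18) and Heyl 0.71 (SE 1.11), and the median of the list was 0.24.

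**Figure D4:**
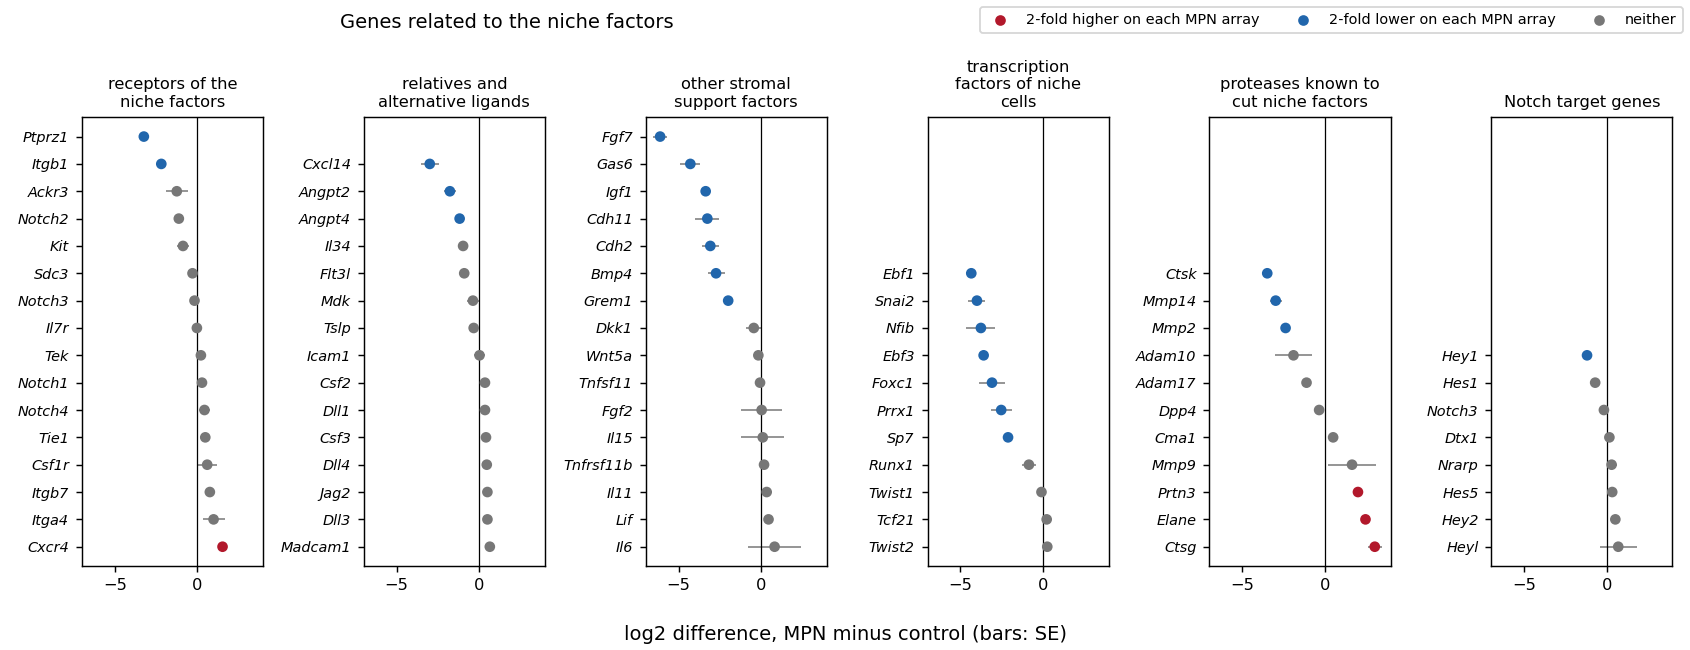
Log2 difference, MPN minus control, with its SE for the genes related to the niche factors, by list. Blue points are genes at least 2-fold lower and red points genes at least 2-fold higher on each MPN array. Blue points gather among stromal support factors (7 of 16 genes) and transcription factors (7 of 11 genes). Over all genes, 5.78% were lower and 1.13% higher by this rule.

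Close relatives of the niche factors, and ligands that share their receptors, gave a median difference of 0.03 over 15 genes, with 0 past the adjusted threshold in either direction. Of the 15, 9 were above background in the mean of either group. On each MPN array 3 were 2-fold lower, against 5.78% of all genes, and 0 were 2-fold higher, against 1.13%. The 3 that were 2-fold lower on each MPN array were Cxcl14, a chemokine, at -2.99 (SE 0.53), Angpt2, the angiopoietin that opposes Angpt1 at Tek, at -1.77 (SE 0.36), and Angpt4 at -1.18 (SE 0.24). Angpt2 was at 4.92, 4.40 and 5.11 in the MPN mice and 6.58 in the control mouse, under background in each MPN mouse and so at least 2.60-fold lower. Mdk (midkine), the closest relative of Ptn, was at 6.06, 5.64 and 5.37 in the MPN mice and 6.06 in the control mouse, a difference of -0.37 (SE 0.34). Il34, the other ligand of Csf1r, had -0.97 (SE 0.25), and Tslp, a cytokine that shares Il7r, -0.33 (SE 0.18). Jag2, the closest relative of Jag1, had 0.51 (SE 0.18) and was under background in the mean of each group. The Delta-like Notch ligands Dll1, Dll3 and Dll4 lay between 0.36 and 0.51. Tslp, Dll1 and Dll3 were also under background in the mean of each group.

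Stromal support factors outside the 8 included several genes with differences as large as those of the niche factors. Of the 16 measured, 9 were above background in the mean of either group. Over 16 measured genes the median difference was -0.29 and 0 passed the adjusted threshold. On each MPN array 7 were 2-fold lower, against 5.78% of all genes. Fgf7, a mesenchymal growth factor for epithelium, was at least 43.5-fold lower in MPN, at -6.12 (SE 0.41, adjusted p = 0.0871). Gas6, the ligand of the Tyro3, Axl and Mer receptors, was at 6.68, 5.51 and 6.64 in the MPN mice and 10.56 in the control mouse, a difference of -4.29 (SE 0.61, adjusted p = 0.151). Igf1, a growth factor for many cell types, was at 4.99, 4.89 and 4.79 in the MPN mice and 8.25 in the control mouse, and so at least 8.23-fold lower (-3.35, SE 0.17). The other 4 were Cdh11, Cdh2, Bmp4 and Grem1, named after their values were seen, with differences from -3.25 to -1.99.

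Transcription factors of niche cells had a median of -2.53 over 11 measured genes, with 0 past the adjusted threshold. On each MPN array 7 were 2-fold lower, against 5.78% of all genes. Among these 7, Ebf3 and Prrx1 are also on the list of stromal markers. Ebf1, which acts in stromal and B lineage cells, was at 5.04, 5.16 and 4.59 in the MPN mice and 9.27 in the control mouse, at least 16.8-fold lower (-4.34, SE 0.30, adjusted p = 0.0871). Snai2, a repressor active in mesenchymal cells, was at 6.36, 5.66 and 6.78 in the MPN mice and 10.27 in the control mouse, and Nfib had a difference of -3.76 (SE 0.88). Foxc1 and Ebf3, which in mice are known to maintain Cxcl12 and Kitl in marrow stroma, had -3.09 (SE 0.82) and -3.59 (SE 0.17), and were named after their values were seen. Foxc1 was at 6.55, 4.74 and 5.75 in the MPN mice and 8.76 in the control mouse. Ebf3 was at 6.05, 6.04 and 5.88 in the MPN mice and 9.58 in the control mouse. Foxc1, like Cxcl12, Vcam1 and Csf1, was lowest in MPN mouse 2, while the MPN mice barely differed in Ebf3.

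Proteases known to cut niche factors went both ways. Over 11 genes the median was -0.34 and 0 passed the adjusted threshold. On each MPN array 3 were 2-fold lower and 3 were 2-fold higher, against 5.78% and 1.13% of all genes. The higher 3 are serine proteases of neutrophil granules, and those of Ctsg and Elane can cleave Cxcl12 and Vcam1. Ctsg (cathepsin G) was at 10.00, 10.17 and 10.88 in the MPN mice and 7.31 in the control mouse (3.04, SE 0.44, adjusted p = 0.154). Elane (neutrophil elastase) was at 9.27, 9.29 and 9.58 in the MPN mice and 6.90 in the control mouse (2.48, SE 0.21), and Prtn3 had 2.02 (SE 0.15). The lower 3 were the matrix proteases Ctsk (-3.49, SE 0.23; under background in each MPN mouse, at least 7.92-fold lower), Mmp14 (-2.97, SE 0.36) and Mmp2 (-2.37, SE 0.24). Mmp9, which releases soluble stem cell factor, was at 7.21, 5.50 and 8.77 in the MPN mice and 5.50 in the control mouse, so that MPN mouse 2 was level with the control. Dpp4, which trims Cxcl12, was under background in all mice. Elane and Mmp9 are themselves on the list of neutrophil markers. The medians of that list were higher on the same MPN arrays, and the part of neutrophils in the protease values was not tested. Elane, Prtn3, Mmp2, Mmp9 and Dpp4 were named after their values were seen.

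Likeness of pattern was measured as the Euclidean distance between profiles over the 4 arrays, each gene centred on its own mean, among 11127 named genes above background in the mean of either group. Nearest to Kitl were Fgf7 (0.61), Phex (0.86), a peptidase of bone-forming cells, and Slitrk6 (0.93), a transmembrane protein of nerve cells. Cxcl12 lay nearest to Zbtb10 (0.20), the laminin chain gene Lamc1 (0.29) and Spred1 (0.38). The nearest to Angpt1 were Col1a2 (0.12), a chain of type I collagen, Cdh2 (0.25), the adhesion molecule N-cadherin, and Rrs1 (0.32). For Vcam1 they were Cd2ap (0.19), Zbtb20 (0.39) and Marcks (0.49), and for Csf1 Errfi1 (0.43), Pik3r1 (0.57) and Trf (0.70), the transferrin gene. Il7 was closest to Abca9 (0.10), Yes1 (0.12) and Rgl1 (0.14), Jag1 to Zfp512 (0.06), Prdm2 (0.07) and Slc25a13 (0.07), and Ptn to Clpp (0.17), Hsph1 (0.28) and Vapb (0.29). Distances grow with the size of a difference, and a short distance over 4 arrays describes these arrays alone.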

How the data were processed

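Stromal cells of 4 mice were measured on Affymetrix mouse gene arrays after RNA amplification, per the labels' protocols and design text. The deposited log2 values were made by the authors with RMA, per the submitters' processing notes. RMA compresses differences near background and assumes one distribution across arrays. The sources used here name neither its version, nor the probe set definitions, nor a build. Arrays have no read depth, and their number limits the precision.

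Of 35556 probe sets, 21789 had 1 gene symbol, 1621 had several and 12146 were unnamed here. The probe set with the highest mean was kept for each of 19938 genes. The background limit is the 95th percentile of the means of 1196 olfactory and vomeronasal receptor genes. The test was limma 3.58.1 under R 4.3.3 (MPN minus control, two-sided, Benjamini-Hochberg over all genes, threshold 0.05). The fit had 2 residual and 1.39 prior degrees of freedom, all spread came from the MPN mice, and the control mouse was taken to vary as they do.

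The genes, lists and tests were chosen with earlier results of these data known. The named genes were the 8 factors, their receptors and closest relatives, the 3 largest differences of each list and the 3 nearest profiles. Il2rg, Thpo, Spp1 and Runx2 and 7 listed markers were not analysed here. The fit was tested on simulated data for this comparison over 19938 genes: at a simulated log2 change of 2 it recovered 7.46% of the changed genes, 44.8% at 4 and 57.6% at 6, with 1 false call, and 0 calls with no change. At the 3 sizes 67, 67 and 66 genes were changed. Recovery depends on the share of genes changed, so these percentages need not hold for the real arrays. Alternatives varied the mice, probe sets, filter, scaling and variance prior.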

Additional observations from a re-analysis of the deposited data

How the results depend on the processing

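The mean difference of each of the 8 factors kept its sign in all 13 alternatives, and 6 were 2-fold lower on each MPN array in every one of them. Where only the variance prior, the gene filter or the handling of probe sets varied, these differences could not change, as each factor had 1 probe set. With 1 mouse left out no sign could turn either, as the MPN arrays of each factor lay on one side of the control. Only the settings that rescaled the arrays could have undone either result. Of the alternatives, 2 moved genes past the adjusted threshold. After cyclic loess, 95 genes passed (88 lower and 7 higher), 2 of them niche factors: Kitl at -6.05 and Il7 at -3.20, both with adjusted p = 0.0485. With the receptor gene medians set equal on the arrays, 153 passed (146 lower and 7 higher), with Kitl at -6.15 and Il7 at -3.24 and adjusted p = 0.0464 for both. These settings moved the median of all genes by -0.170 and -0.257. Cyclic loess over pairs of arrays, chosen after seeing the data, called 0 genes by limma at a smallest adjusted p of 0.0568, with 2598 at an unadjusted p under 0.05. The cause was not tested. Over all alternatives adjusted p ran from 0.0464 to 0.454 for Kitl and for Il7. When any 1 MPN mouse was left out, 0 genes passed, and the count of genes 2-fold lower on each MPN array was 1312 to 1756, the highest being without MPN mouse 3, against 1153 with all mice. The 2-fold rule covers fewer arrays when a mouse is left out. Its count could not fall there, nor could any of the 6 niche factors drop out. Leaving out 1 mouse gave -6.04 to -5.69 for Kitl, -2.85 to -2.22 for Cxcl12 and -3.49 to -1.95 for Csf1. No paired analysis was possible because the control group holds 1 mouse. With 1 control, no result separates the group from that mouse, and differences near background are compressed.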

Other observations

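Some support factors, the Notch target gene Heyl and the B cell marker Vpreb1 differed more between the MPN mice than between the groups. They were chosen after their values were seen. Il6, an inflammatory cytokine, was at 4.53, 6.38 and 2.73 in the MPN mice and 3.72 in the control mouse. Il15, a cytokine for natural killer cells, was at 4.01, 6.42 and 3.77 in the MPN mice and 4.62 in the control mouse. Both were above background in MPN mouse 2 and under it in the other mice. Fgf2, a fibroblast growth factor, was at 6.31, 4.28 and 3.70 in the MPN mice and 4.72 in the control mouse, and Heyl at 8.55, 6.55 and 6.27 in the MPN mice and 6.42 in the control mouse, each highest in MPN mouse 1, as Ptn was. Vpreb1, a gene of B cell precursors that depend on Il7, was at 4.36, 11.26 and 4.80 in the MPN mice and 9.64 in the control mouse.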
